A study of Mus musculus with 8 samples.

Results

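The core circadian clock genes and their main output factors were examined in gastrocnemius, a calf muscle made up mostly of fast fibres, of wild-type and Anxa2 knockout mice. The set of 10 genes was listed by Ensembl ID: Arntl (also called Bmal1), Clock, Per1, Per2, Per3, Cry1, Cry2, Nr1d1, Dbp and Nfil3. Of these, 9 have a row among the 17352 rows of the value table, and Per3 was not analysed here. RNA came from left-hindlimb muscle of 24-week-old C57BL/6 mice, with 4 wild-type animals and 4 animals labelled Anxa2 knockout, each on its own array. Anxa2 encodes annexin A2, a calcium-dependent membrane-binding protein. The labels state neither how the knockout allele was made, nor the sex of the animals, nor the time of day of collection. The genes were selected on their role in the clock, with earlier results of these data known, among them the log2 values by array and the genotype differences of the same genes. Counts over the genes, their genotype p-values and ranks, their spread between arrays and the opposed pairs are therefore descriptions.

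The clock is a feedback loop of transcription. CLOCK and BMAL1 bind together to E-box sequences and switch on the Per and Cry genes, whose proteins then block CLOCK and BMAL1. The same pair switches on Nr1d1, which encodes REV-ERB alpha, a receptor that represses Arntl and Nfil3 through ROR elements. It also switches on Dbp, an activator that binds D-box sequences, and NFIL3 binds the same D-box sequences as a repressor. In mouse tissues Arntl and Nfil3 peak at roughly the opposite time of day to Dbp and Nr1d1, and muscle has such a clock of its own.

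Promoter windows show where these elements lie in the genes whose levels are compared below. RefSeq windows of the GRCm38.p6 assembly, each with 250 bases before and 50 after an annotated start, were found for 9 of the 10 listed genes, 13 windows in all, and none was found for Per2. The letters searched on both strands were CACGTG for the E-box, CACGTT for its common variant, TTATGTAA or TTATGCAA for the D-box, and TAGGTCA for the ROR element. No match overlapped another. Arntl, in 1 of its 2 windows, and Nfil3 are shown because both hold the ROR element in capitals, on the gene's strand in Arntl and on the opposite strand in Nfil3. Their windows are chr7:113207261-113207560 on the plus strand and chr13:52980990-52981289 on the minus strand.
Arntl: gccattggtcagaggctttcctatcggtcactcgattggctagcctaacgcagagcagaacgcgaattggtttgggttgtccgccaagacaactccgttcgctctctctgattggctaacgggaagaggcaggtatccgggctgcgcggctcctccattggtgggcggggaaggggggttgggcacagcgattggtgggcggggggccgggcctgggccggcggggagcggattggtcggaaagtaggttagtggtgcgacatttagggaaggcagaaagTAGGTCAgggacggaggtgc
Nfil3: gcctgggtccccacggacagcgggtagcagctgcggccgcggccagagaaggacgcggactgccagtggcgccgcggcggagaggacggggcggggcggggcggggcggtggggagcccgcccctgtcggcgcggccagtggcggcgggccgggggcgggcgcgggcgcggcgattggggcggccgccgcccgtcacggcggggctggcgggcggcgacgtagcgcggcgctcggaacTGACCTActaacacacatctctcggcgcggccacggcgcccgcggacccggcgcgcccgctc
The ROR element begins at base 31 after the start in this Arntl window, with base 1 the first transcribed one, and at base -12 in Nfil3. Of all 32851 promoter windows of this length, 2.61% hold TAGGTCA. Per1, again with 1 of its 2 windows, and Cry1 are shown for the E-box, with the Per1 D-box also in capitals. Their windows are chr11:69098699-69098998 on the plus strand and chr10:85185005-85185304 on the minus strand.
Per1: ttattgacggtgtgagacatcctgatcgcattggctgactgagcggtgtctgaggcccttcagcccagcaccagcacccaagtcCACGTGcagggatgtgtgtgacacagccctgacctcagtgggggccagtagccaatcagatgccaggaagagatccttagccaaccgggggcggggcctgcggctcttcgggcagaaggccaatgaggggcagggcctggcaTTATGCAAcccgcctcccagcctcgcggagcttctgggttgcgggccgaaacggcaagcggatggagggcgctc
Cry1: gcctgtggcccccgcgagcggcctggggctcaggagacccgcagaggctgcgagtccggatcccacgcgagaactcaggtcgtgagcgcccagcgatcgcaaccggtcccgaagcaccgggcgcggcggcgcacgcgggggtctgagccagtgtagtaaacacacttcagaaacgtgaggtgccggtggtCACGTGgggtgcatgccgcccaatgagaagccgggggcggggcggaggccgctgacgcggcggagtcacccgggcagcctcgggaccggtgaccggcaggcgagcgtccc
The E-box begins at base -166 in Per1 and -60 in Cry1, and 7.15% of all windows hold one. The D-box of Per1 begins at base -24, and 1.66% of all windows hold a D-box. The window of Per3, not shown, also holds D-boxes, beginning at bases -205 and -158. The CACGTT variant, present in 4.68% of all windows, lies in the windows of Cry1, Cry2 and Nr1d1. Dbp and Clock hold none of these letters in their windows. These matches describe the sequence only, and no binding was measured.

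The values are RMA log2 values, on which a step of 1 is a doubling, and levels of different genes are not set against each other. Median values per array lay between 4.95 and 5.09. Wild type replicate 4 stood apart, with a mean correlation of 0.978 with the other arrays against 0.988 to 0.991 for the rest. The row ENSMUSG00000069045_at splits the arrays across genotype, reading 2.59 to 2.71 in wild type replicates 1 and 2 and knockout replicates 3 and 4, and 8.40 to 9.05 in the other 4 arrays. These are called the low and the high side of the split. No table used here pairs the remaining row IDs with gene names, so the row of Anxa2 and markers of muscle or other cell types were not checked. In whole muscle, fewer cells of a type and less RNA per cell cannot be told apart.

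No clock gene passed the test between genotypes. The D-box factors had the widest gaps in mean, with Dbp 1.64-fold above and Nfil3 1.73-fold below wild type in the knockout. The means of the other 7 genes differed by 1.01-fold (Arntl) to 1.25-fold (Cry2). The genotype comparison used limma over all rows of the table, with Benjamini-Hochberg adjustment. At an adjusted p of 0.05, 0 of the 9 measured genes passed, and neither did any other row, so the background is 0% of rows. With no row past the threshold, the lack of a call does not show that a clock gene was unchanged. At an unadjusted p under 0.05, 1 of the 9 was higher (Dbp) and 1 lower (Nfil3) in the knockout, against 0.732% and 0.818% of all rows. The median difference was 0.13 over the 9 genes and -0.01 over all rows, and the median size of a difference was 0.22 and 0.08. The 95% interval stayed inside a 2-fold change in both directions for 7 of the 9, all but Dbp and Nfil3, and within 1.5-fold for 4. Over all rows, the same held for 17077 and 15118 of 17352, so the clock genes were less tightly bounded than most rows.

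**Figure D1:**
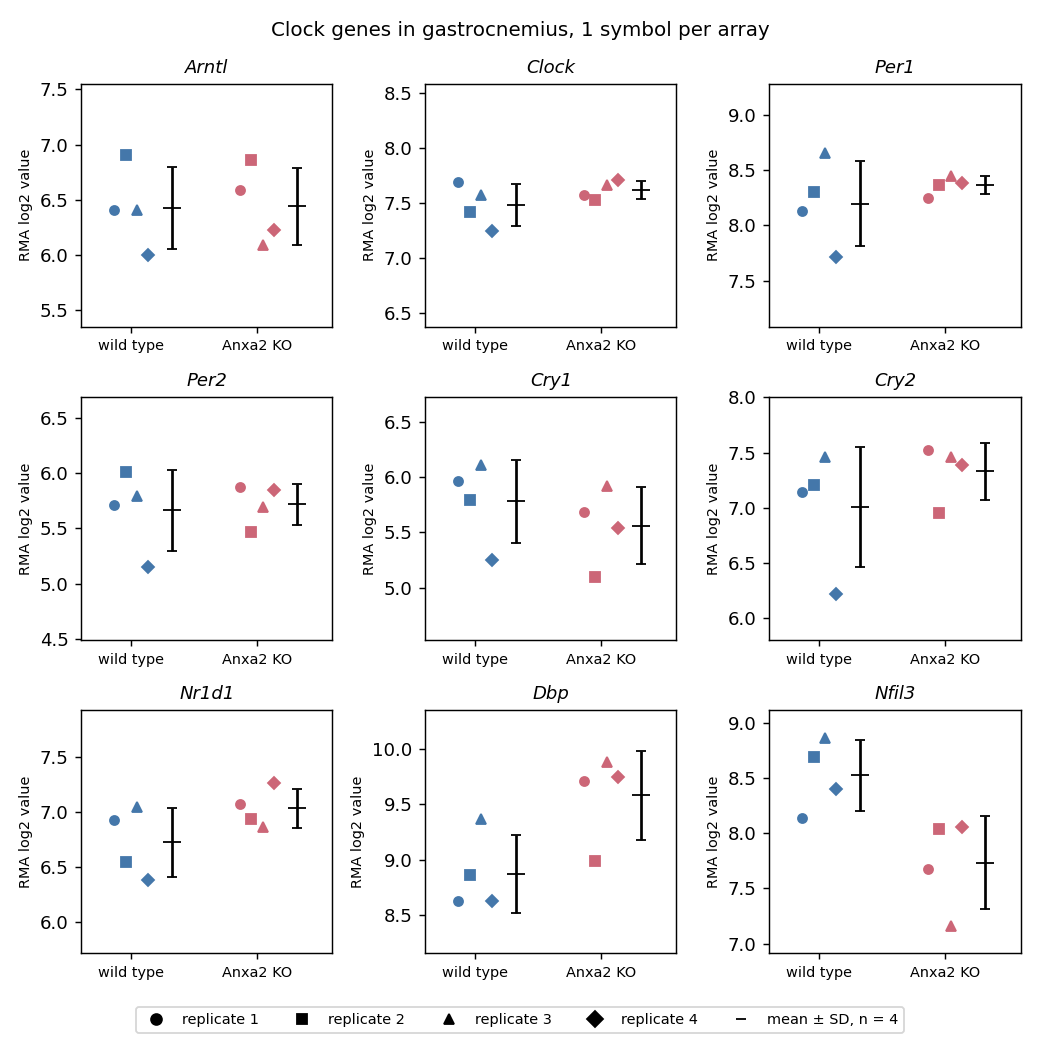
RMA log2 value of each measured clock gene (vertical axis, each panel spanning the same number of log2 units) in wild-type (blue) and Anxa2 knockout (red) arrays. Each symbol is 1 array, its shape gives the replicate number, and the bars are mean ± SD (n = 4). All 4 knockout values of Nfil3 lie below the wild-type values, and wild type replicate 4 is the lowest array for 6 of the 9 genes.

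Nfil3 (ENSMUSG00000056749_at), the D-box repressor, was the clock gene with the largest genotype difference. Its values in wild type replicates 1 to 4 were 8.14, 8.69, 8.86 and 8.40. In knockout replicates 1 to 4 they were 7.67, 8.04, 7.16 and 8.06. Every knockout array lay below every wild-type array, although wild type replicate 1 and knockout replicate 4 were close. Of all rows, 0.703% were lower in the knockout without overlap. The wild-type mean was 8.52 ± 0.32 and the knockout mean 7.73 ± 0.42 (SD, n = 4). The difference was -0.79 (SE 0.22, 95% interval -1.27 to -0.30), or 1.73-fold lower. Its p of 0.0046 ranked 13 among all rows, and its limma adjusted p was 1.00. Within the low side of the split the difference was -0.80 and within the high side -0.77, each between 2 arrays and 2. With single arrays left out it ran from -0.92 to -0.60, the smallest size without knockout replicate 3.

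Dbp (ENSMUSG00000059824_at), the D-box activator and a direct output of CLOCK and BMAL1, differed the other way. It read 8.62, 8.86, 9.37 and 8.63 in wild type replicates 1 to 4 and 9.71, 8.99, 9.88 and 9.75 in the knockout. Knockout replicates 1, 3 and 4 lay above all wild-type arrays, while knockout replicate 2 lay below wild type replicate 3. The wild-type mean was 8.87 ± 0.35 and the knockout mean 9.58 ± 0.40 (SD, n = 4). The knockout was higher by 0.71 (SE 0.22, 95% interval 0.22 to 1.20), or 1.64-fold, with a p of 0.0088 that ranked 36 and a limma adjusted p of 1.00. On the low side the difference was 1.08 and on the high side 0.35, which became -0.02 without wild type replicate 4. Without knockout replicate 2 the difference was 0.91, and without knockout replicate 3 it was 0.61. For both Dbp and Nfil3 the unadjusted p stayed under 0.05 in 18 of 18 alternative fits, and the adjusted p was 0.94 or more in each. These fits reuse the same arrays, so they are not independent of each other.

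**Figure D2:**
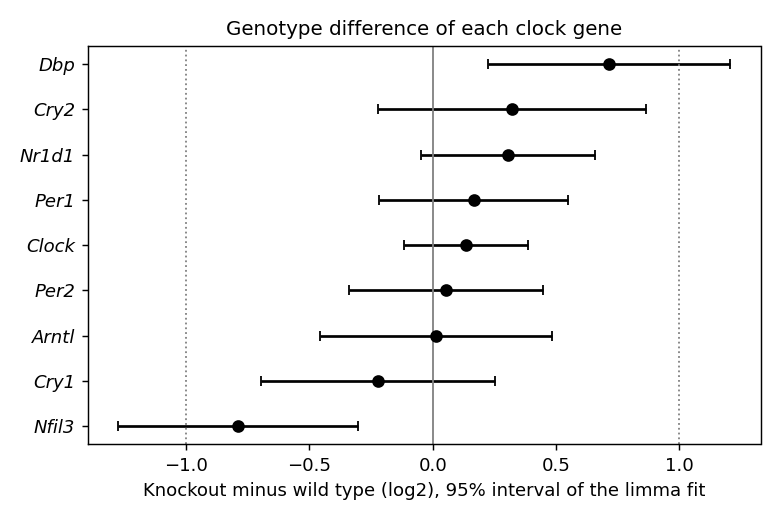
Knockout minus wild type for each clock gene on the log2 scale (horizontal axis), with the 95% interval of the limma fit, not adjusted for the number of rows. Dotted lines mark a 2-fold change. The intervals of Nfil3 (-1.27 to -0.30) and Dbp (0.22 to 1.20) do not include 0, and the other 7 do.

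The activators showed little difference in mean between genotypes. Arntl (ENSMUSG00000055116_at), whose protein BMAL1 is the partner of CLOCK, read 6.41, 6.91, 6.41 and 6.00 in wild type replicates 1 to 4 and 6.59, 6.86, 6.10 and 6.22 in the knockout. The groups overlapped almost fully, and replicate 2 was the highest array in both. Means were 6.43 ± 0.37 and 6.44 ± 0.35 (SD, n = 4), a difference of 0.01 (SE 0.21, 95% interval -0.46 to 0.48, limma adjusted p = 1.00). The 2 sides of the split gave differences of opposite sign. On the low side both knockout arrays lay below both wild-type arrays, with a difference of -0.50, and on the high side both lay above, with a difference of 0.52, or 0.32 without wild type replicate 4. An interaction of genotype and side, fitted because of this pattern, did not pass (limma adjusted p = 0.83, with 0.0173% of all rows past 0.05), so the sides were not shown to differ.

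Clock (ENSMUSG00000029238_at), which encodes the other activator, varied least. Wild type replicates 1 to 4 read 7.69, 7.42, 7.57 and 7.25, and knockout replicates 7.57, 7.53, 7.66 and 7.71. The knockout arrays all fell within or just above the wild-type range. The means were 7.48 ± 0.19 and 7.62 ± 0.08 (SD, n = 4), and the difference of 0.13 (SE 0.11, 95% interval -0.12 to 0.39) had a limma adjusted p of 1.00. Clock is the only one of the 9 genes whose spread within genotypes was below that of the median row, 0.15 against 0.18.

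Among the repressors, the Per genes encode the proteins that, together with the CRY proteins, close the loop. Per1 (ENSMUSG00000020893_at) read 8.13, 8.30, 8.65 and 7.72 in wild type and 8.25, 8.37, 8.45 and 8.39 in the knockout. The wild-type arrays spread widely around a tight knockout group. Its means were 8.20 ± 0.39 and 8.36 ± 0.08 (SD, n = 4), a difference of 0.17 (SE 0.17, 95% interval -0.22 to 0.55). Per2 (ENSMUSG00000055866_at) read 5.71, 6.01, 5.79 and 5.15 in wild type and 5.87, 5.47, 5.69 and 5.85 in the knockout. The groups overlapped, with wild type replicate 4 again lowest. Its means were 5.66 ± 0.37 and 5.72 ± 0.19 (SD, n = 4), a difference of 0.05 (SE 0.18, 95% interval -0.34 to 0.45). Both had a limma adjusted p of 1.00. Without wild type replicate 4 the difference of Per1 was 0.0047 and that of Per2 -0.12, so the sign of Per2 rested on that array.

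Cry1 (ENSMUSG00000020038_at), the cryptochrome that acts late in the cycle, read 5.97, 5.79, 6.11 and 5.25 in wild type and 5.68, 5.09, 5.92 and 5.54 in the knockout. Replicate 4 of wild type and replicate 2 of the knockout were low, and the rest overlapped. The means were 5.78 ± 0.38 and 5.56 ± 0.35 (SD, n = 4), a difference of -0.22 (SE 0.21, 95% interval -0.70 to 0.25). It was -0.40 without wild type replicate 4 and -0.07 without knockout replicate 2. Cry2 (ENSMUSG00000068742_at), the second cryptochrome, read 7.15, 7.21, 7.46 and 6.22 in wild type and 7.53, 6.95, 7.46 and 7.39 in the knockout. A single array, wild type replicate 4, differed by -1.05 from the mean of wild type replicates 1 to 3. The means were 7.01 ± 0.54 and 7.33 ± 0.26 (SD, n = 4), and the difference of 0.32 (SE 0.24, 95% interval -0.22 to 0.87) was 0.06 without that array. Both had a limma adjusted p of 1.00.

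Nr1d1 (ENSMUSG00000020889_at), whose product represses Arntl and Nfil3, read 6.93, 6.55, 7.04 and 6.38 in wild type and 7.07, 6.94, 6.86 and 7.26 in the knockout. Wild type replicates 2 and 4 lay below all knockout arrays, and the other 2 overlapped them. The means were 6.72 ± 0.31 and 7.03 ± 0.17 (SD, n = 4), a difference of 0.31 (SE 0.16, 95% interval -0.05 to 0.66), with a p of 0.082 and a limma adjusted p of 1.00. It was 0.32 on the low side of the split and 0.29 on the high side, but -0.04 on the high side without wild type replicate 4, which leaves 1 wild-type array there. Without wild type replicate 4 it was 0.19, and without wild type replicate 3 it was 0.41.

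The clock genes varied between single arrays more than most rows did. The highest and the lowest array were over 2-fold apart for 4 of the 9 (Cry1, Cry2, Dbp and Nfil3), against 10.5% of all rows. Nfil3 had the widest range, 3.25-fold, wider than 98.6% of all rows, and Clock the narrowest, 1.38-fold. With the genotype means removed, the SD ran from 0.15 in Clock to 0.42 in Cry2, against a median of 0.18 over all rows. Compared only with rows whose mean level was within 0.5 log2 units, the SD of Cry1 exceeded that of 91.8%. The share was 91.3% for Cry2, 87.8% for Arntl, 85.1% for Dbp, 83.1% for Nfil3 and 82.2% for Per2. For Per1 it was 65.6%, for Nr1d1 64.7% and for Clock 23.0%. Part of this spread came with wild type replicate 4, which was the lowest array for 6 of the 9 genes and for 18.8% of all rows. Over the whole table this array ran high, being the highest for 36.9% of rows and for 0 of the 9 genes. Without it the range of Cry2 went from 1.31 to 0.57, Per1 from 0.94 to 0.52, Per2 from 0.86 to 0.54 and Clock from 0.46 to 0.29. The ranges of Dbp (1.26), Nfil3 (1.70) and Cry1 (1.02) were the same without it.

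Genes with opposite daily peaks were set against each other by array. For each gene the deviation from its own mean over 8 arrays was taken, and the deviation of the later-named gene was subtracted, so that a high value means the first gene was relatively high and the second relatively low. A value common to a whole array cancels in such a contrast. Of 6 pairs listed, 5 could be computed, since 1 needs Per3. As the pairs were chosen for this pattern, no test is given.

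Nfil3 minus Dbp was 0.61, 0.93, 0.59 and 0.87 in wild type replicates 1 to 4, and -0.94, 0.15, -1.62 and -0.59 in knockout replicates 1 to 4. All wild-type arrays lay above all knockout arrays, with a gap of 0.44 between the lowest wild-type and the highest knockout array. The means were 0.75 ± 0.18 and -0.75 ± 0.74 (SD, n = 4), a difference of -1.50, or a 2.83-fold lower ratio of Nfil3 to Dbp. The wild-type arrays were close together, whereas the knockout arrays spanned from near the wild type in replicate 2 to the lowest value in replicate 3. The difference was -1.88 on the low side of the split and -1.13 on the high side, and it ran from -1.80 to -1.21 with single arrays left out.

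**Figure D3:**
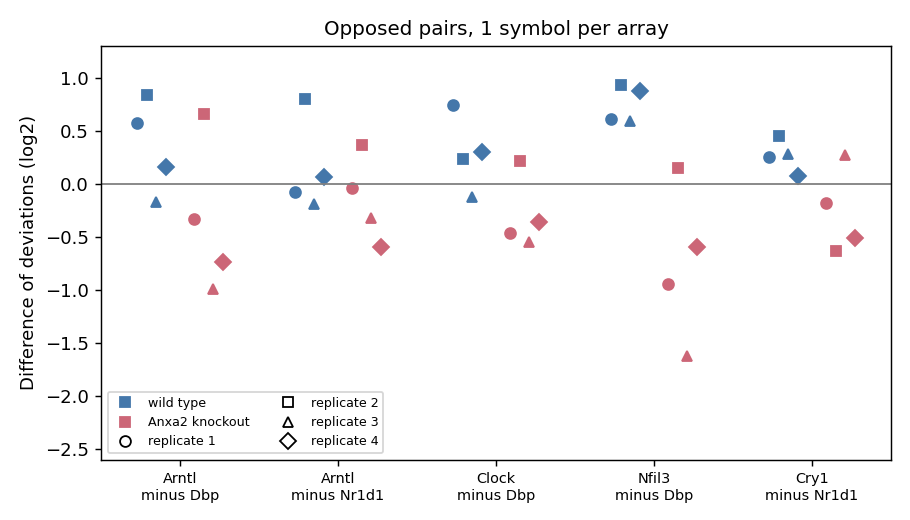
Difference of log2 deviations within each of 5 opposed gene pairs (vertical axis) for wild-type (blue) and Anxa2 knockout (red) arrays. Each symbol is 1 array and its shape gives the replicate number. The genotypes are apart without overlap only for Nfil3 minus Dbp, and knockout replicate 2 lies among the wild-type arrays in the 2 pairs of Arntl and in Clock minus Dbp.

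Arntl minus Dbp is the classical opposed pair of the loop. It read 0.58, 0.84, -0.17 and 0.16 in wild type and -0.34, 0.66, -0.99 and -0.74 in the knockout. The highest arrays were wild type replicate 2, knockout replicate 2 and wild type replicate 1, and the lowest were knockout replicates 3 and 4. The genotypes overlapped, with means of 0.35 ± 0.45 and -0.35 ± 0.73 (SD, n = 4) and a difference of -0.70. Taken alone, Dbp differed by 0.71 and Arntl by 0.01. The 8 arrays spanned 1.83, a 3.56-fold change of the ratio. On the low side of the split the difference was -1.57 and on the high side 0.17, or 0.34 there without wild type replicate 4, so the direction held on 1 side only.

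Arntl minus Nr1d1 sets the activator against its own repressor. It read -0.08, 0.80, -0.19 and 0.06 in wild type and -0.04, 0.37, -0.32 and -0.59 in the knockout. The ends of the order were shared with Arntl minus Dbp: replicate 2 of both genotypes was highest and knockout replicates 3 and 4 were lowest. Arntl is part of both contrasts, so the orders are not independent. The genotype difference was -0.29, within the SDs of 0.45 and 0.41. It was -0.08 without wild type replicate 2, -0.15 without knockout replicate 4 and -0.47 without knockout replicate 2. On the low side it was -0.82 and on the high side 0.23, or 0.36 there without wild type replicate 4.

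Clock minus Dbp read 0.75, 0.24, -0.12 and 0.30 in wild type and -0.47, 0.21, -0.54 and -0.36 in the knockout, a difference of -0.58. Clock alone differed by 0.13, in the same direction as Dbp with 0.71. Clock minus Dbp was highest in wild type replicate 1, and knockout replicate 2 again sat with the wild type. Cry1 minus Nr1d1 read 0.25, 0.45, 0.28 and 0.08 in wild type and -0.18, -0.64, 0.27 and -0.51 in the knockout, a difference of -0.53. In this pair knockout replicate 2 was the lowest array and replicate 3 lay with the wild type, whereas in the other 4 pairs replicate 2 was the highest knockout array and replicate 3 was lowest or next to lowest of all 8. A single order of the arrays therefore did not describe all 5 pairs. Of the 4 pairs other than Cry1 minus Nr1d1, all but Arntl minus Nr1d1 contain Dbp. Arntl minus Nr1d1 shares Arntl with Arntl minus Dbp and Nr1d1 with Cry1 minus Nr1d1, so the orders are not independent.

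**Figure D4:**
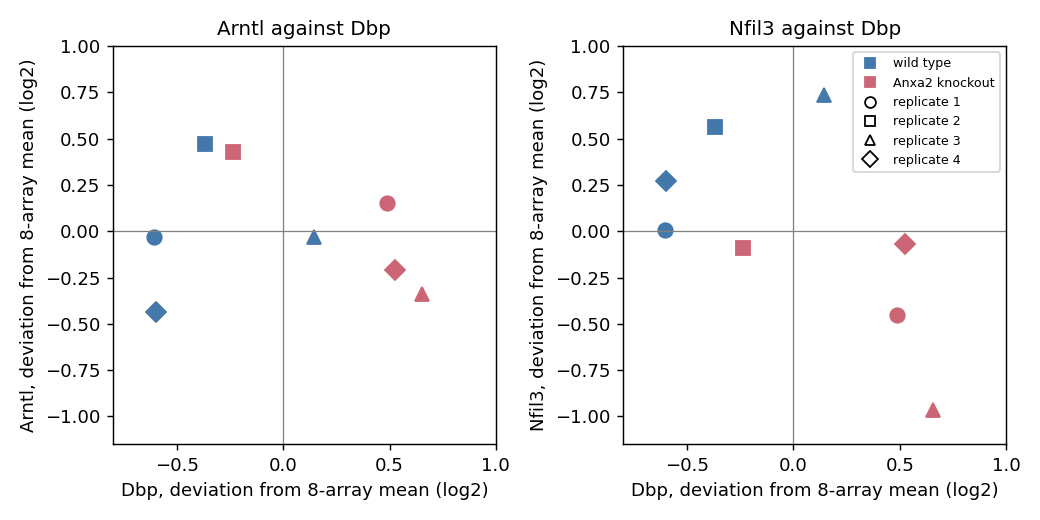
Deviation of Arntl (left) and Nfil3 (right) from the 8-array mean against that of Dbp, on log2 scales, for wild-type (blue) and Anxa2 knockout (red) arrays, with the shape giving the replicate number. Knockout replicates 1, 3 and 4 lie to the right with high Dbp, and Nfil3 is below its mean in all knockout arrays.

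Over the 8 arrays, the correlation of the opposed genes ran from -0.58 to 0.56. Pearson's r of Nfil3 and Dbp was -0.58 (Spearman's rho -0.57), and -0.01 once the genotype means were removed, so it did not hold within the genotypes. Without the 2 arrays farthest from the median of Dbp, knockout replicates 3 and 4, it was -0.28. Arntl and Dbp had an r of -0.21 (rho -0.14), which was -0.34 with genotype means removed and -0.61 without wild type replicate 4. Without the 2 arrays farthest from the median of Arntl, replicate 2 of both genotypes, it was 0.17, so its sign rested on those arrays. Arntl and Nr1d1 had an r of 0.05 (rho 0.19), which was 0.05 with genotype means removed, -0.53 without wild type replicate 4 and 0.63 without replicate 2 of both genotypes. Clock and Dbp were positive at 0.56 (rho 0.43), at 0.37 with genotype means removed and at 0.10 without wild type replicates 2 and 4, the farthest from the median of Clock. Cry1 and Nr1d1 stood at 0.24 (rho 0.02), at 0.56 with genotype means removed, and at -0.31 without wild type replicate 4 and knockout replicate 2, the farthest from the median of Cry1. No p is given, since the genes were chosen for such a pattern.

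Of all 36 pairs of the 9 genes, 28 had an r above 0 and 8 below. The highest was Per2 with Cry2 at 0.86, and the lowest was Dbp with Nfil3 at -0.58. Without wild type replicate 4, 15 pairs were below 0 and 21 above. Arntl and Clock then stood at -0.86, against -0.04 with all arrays, and Cry2 and Dbp at 0.79, against 0.73.

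**Figure D5:**
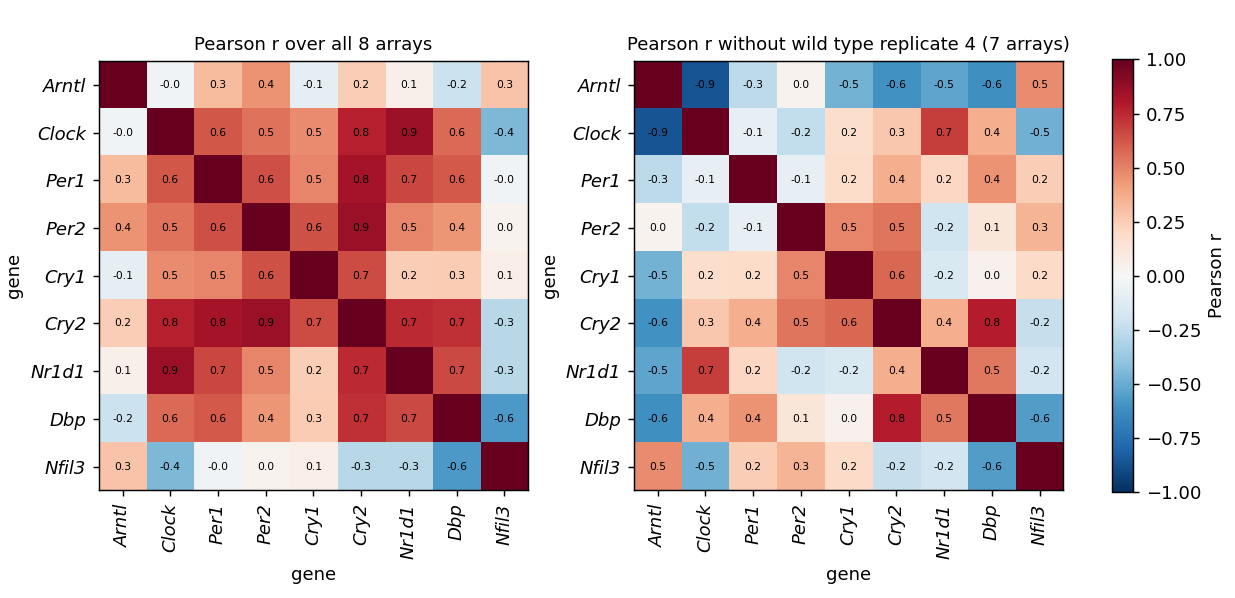
Pearson's r between the log2 values of each pair of measured clock genes, over all 8 arrays (left) and without wild type replicate 4 (right, 7 arrays), on a colour scale from blue (negative) to red (positive). In the right panel Arntl is negative with Clock, Per1, Cry1, Cry2, Nr1d1 and Dbp, with -0.86 for Clock.

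Rows that followed the Arntl minus Dbp contrast most closely were sought among the 1820 other rows whose highest and lowest array differed by at least 1 log2 unit. The closest in the same direction were ENSMUSG00000022180_at (r = 0.85) and ENSMUSG00000035601_at (r = 0.84). In the opposite direction they were ENSMUSG00000018217_at (r = -0.97) and ENSMUSG00000041607_at (r = -0.96). The values rest on 8 arrays and were picked as extremes of 1820, and the IDs are not paired with gene names here. ENSMUSG00000018217_at had a wild-type mean of 8.76 ± 0.38 and a knockout mean of 9.21 ± 0.62 (SD, n = 4).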

How the data were processed

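Expression was measured on 8 arrays, 1 per animal, and the deposited values are log2 values, 1 row per Ensembl gene ID, made by the authors with RMA in R 3.1.2, per the submitters' processing notes. RMA corrects background, equalizes the arrays' distributions and summarizes probes, so it compresses differences near background. The labels name no probe-set definition, filter or scan date, and without detection calls the number of arrays limits the precision. All 8 columns were used.

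The members, lists and tests were chosen with earlier results of these data known. All 9 measured clock genes are named. Groups came from the labels. Limma 3.58.1 in R 4.3.3 was fitted to all 17352 rows with genotype as the only term (eBayes defaults, two-sided, Benjamini-Hochberg over all rows, threshold 0.05, no low-value filter), and was tested on simulated data. P-values set the genotype difference against the spread between these animals within genotypes, moderated over all rows. In the main fit that spread includes the split of the arrays, which is not a term. Contrasts and correlations were computed in Python 3.11.15, and figures were drawn with matplotlib 3.10.9. Deviations of same-numbered arrays correlated at -0.07, -0.25, 0.18 and -0.24, so the numbers were not taken to pair animals. The rule for rows most like a clock contrast was the highest and lowest Pearson r, with at most 2 IDs each way. Lists of other clock genes, muscle outputs, hormone, temperature and early-response genes and cell type markers were not analysed, because 0 of the 49997 genes of the name table carry an Ensembl ID. Symbols of the 9 genes come from the list that defines the set. Promoter windows were matched by symbol.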

Additional observations from a re-analysis of the deposited data

How the results depend on the processing

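Under 19 alternatives, 0 clock genes passed the threshold in limma. At an unadjusted p under 0.05, 2 did in the main fit and 2 or 3 in the alternative fits. Of all rows, 1.55% did in the main fit and 1.14% to 4.04% in the alternative fits. The count of 3 came without wild type replicate 3, where 2.31% of all rows did. Over all rows, the count lower in the knockout went from 0 to 1 with the replicate block, array weights, median centring, quantile normalization or cyclic loess. At an adjusted p under 0.10, 1 row passed in the main fit, counted without regard to direction. The replicate block changed no other call. Of 162 refitted differences, 10 changed sign. Arntl was -0.16 with array weights, -0.0045 with quantile normalization, -0.01 with cyclic loess, and -0.27 without wild type replicate 4 and knockout replicate 2 together, and Per2 was -0.045 and -0.035 under the first and last of these. With single arrays left out the values were -0.13 to 0.17 for Arntl and -0.12 to 0.17 for Per2. The differences of Dbp (0.61 to 0.91) and Nfil3 (-0.93 to -0.60) kept their direction in 18 of 18 fits, which reuse the same arrays.

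Within the low side of the split the genotype difference was -1.57 for Arntl minus Dbp, -0.82 for Arntl minus Nr1d1 and -0.95 for Clock minus Dbp. Within the high side it was 0.17, 0.23 and -0.21, and without wild type replicate 4, an alternative added after seeing the data, 0.34, 0.36 and -0.0019 there. The span over arrays within the high side was 1.00 for Arntl minus Dbp, 0.56 for Arntl minus Nr1d1, 0.77 for Clock minus Dbp and 1.81 for Nfil3 minus Dbp, with 4 arrays in place of 8. With genotype means removed it was 0.92 for Clock minus Dbp and 1.77 for Nfil3 minus Dbp. Single arrays left out gave spans of 0.96 to 1.39 for Arntl minus Nr1d1, 0.84 to 1.29 for Clock minus Dbp and 1.87 to 2.55 for Nfil3 minus Dbp. It gave an r of -0.53 to 0.44 for Arntl and Nr1d1 and -0.15 to 0.39 for Cry1 and Nr1d1. Without wild type replicate 4 and knockout replicate 2 together these were -0.61 and -0.31. The cause of these changes was not tested. Correlations within a side of the split were not computed, because each side has 4 arrays. In 28 checks of a gene or contrast within a genotype for 1 array far from the other 3, 0 found one.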
